A study of Mus musculus with 7 samples.

Results

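Fezf2 neurons are cells that carried the transcripts of a cortical layer 5 output neuron: at least 5 Slc17a7 and at least 5 Fezf2 transcripts, with at most 2 of Foxp2, at most 2 of Cplx3, at most 2 of Slc17a6 and at most 3 of Gad1 and Gad2 together. The rule found 3672 such cells among 384076 cells in all, 0.956% of the total and 2.55% of the 144175 cells with at least 5 Slc17a7 transcripts. Xenium in situ, which images single RNA molecules in tissue with padlock-type probes and assigns them to segmented cells, had been run with 297 genes on 10 µm coronal hemisections of fresh frozen wild-type mouse brain, a study aimed at the anterior thalamic nuclei. The 7 sections were 2 anterior ones at bregma -0.58 mm (replicates 1 and 2), 2 intermediate ones at bregma -0.70 to -0.82 mm (replicates 1 and 2) and 3 posterior ones at bregma -0.94 mm (replicates 1, 3 and 4). All sections share the wild-type genotype, and no treatment is named. The labels do not say whether replicates are separate animals, so a p-value measures only the spread between sections, which may be technical.

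Fezf2 encodes a zinc-finger transcription factor that directs cortical neurons to send axons out of the cerebrum, and it acts in part through Bcl11b, also called Ctip2. Layer 5 holds extratelencephalic neurons, which project to brainstem, thalamus and spinal cord, intratelencephalic neurons, which project within cortex and striatum, and near-projecting neurons with short local axons. Layer 6 corticothalamic neurons also express Fezf2 and are marked by Foxp2, while Slc17a7 encodes VGLUT1, the vesicular glutamate transporter of most cortical excitatory neurons.

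The members were chosen on 7 genes, whose levels are given as a description only. Of 12835 cells with at least 5 Slc17a7 and 5 Fezf2 transcripts, 28.6% were kept. The limit on Gad1 and Gad2, the enzymes that make GABA, was exceeded by 5527 of them, that on Slc17a6 by 2998, that on Foxp2 by 2990 and that on Cplx3 by 613, and a cell could exceed several. A member held a median of 7 Fezf2 transcripts, with quartiles of 5 and 9 and a highest value of 41. A member held a median of 615 transcripts of 129 genes, with section medians of 570 to 674, against a median of 339 transcripts over all cells. Section totals ran from 17438577 to 23432215 transcripts, and negative control probes gave 0.249 counts per member. Just inside the Fezf2 limit, the 1055 cells with 5 Fezf2 transcripts averaged 2.66 Bcl11b, 2.28 Parm1 and 5.58 Rorb transcripts. Just outside it, the 1694 cells with 4 averaged 2.12 Bcl11b, 1.74 Parm1 and 5.50 Rorb transcripts, so the rule draws a line through a gradual range. No cell identifier of a member occurred in a second section, and 8 of 384068 identifiers did among all cells.

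Fezf2 neurons made up 2.48% and 2.63% of cells with at least 5 Slc17a7 transcripts in the anterior sections, 2.77% and 2.52% in the intermediate ones and 2.69%, 2.63% and 2.12% in the posterior ones (replicates 1, 3 and 4). Posterior 4 was the lowest, with a 95% Wilson interval of 1.94% to 2.32% that covers counting error only. The posterior share averaged 2.48% ± 0.313 (SD, n = 3) against an anterior share of 2.56% ± 0.105 (SD, n = 2). The difference was smaller than the spread between sections (two-sided exact permutation test, p = 1, where 0.2 is the smallest p these numbers allow).

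Bcl11b, the marker that the rule did not use, was found in most members, and 13.1% had no Bcl11b transcript. Its mean was 4.48 and 4.002 transcripts per member in the anterior sections, 4.55 and 4.17 in the intermediate ones and 4.30, 4.32 and 4.50 in the posterior ones. These section means lie close together. Cell positions were not used here, so the layer in the name rests on transcripts alone, and part of the members carried another set of genes, described with the positions.

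The extratelencephalic markers other than Bcl11b were well represented. Parm1, encoding a mucin-like membrane protein, averaged 4.36 ± 0.313 transcripts per member, Vat1l, a vesicle amine transport protein-like gene, averaged 3.13 ± 0.147, and Pou3f1, a POU-domain transcription factor, averaged 1.89 ± 0.149 (SD, n = 7 sections each). Of the near-projecting markers, Nxph3, encoding a secreted neurexin ligand, averaged 2.33 ± 0.252 and Vwc2l, a secreted protein with von Willebrand factor C-like domains, 0.824 ± 0.079. Of the intratelencephalic markers, Rorb, a nuclear receptor of layers 4 and 5, averaged 5.10 ± 0.877, Deptor, an inhibitor of mTOR signalling, 1.02 ± 0.121, Cux2, a homeobox factor, 0.862 ± 0.226, and Rspo1, a Wnt co-activator, 0.560 ± 0.096. Probes differ in efficiency, so these levels describe each gene and do not rank genes against each other. The most counted genes were Enc1 at 25.5 transcripts per member, Anks1b at 25.1, Slc17a7 at 23.8, Nrn1 at 20.3 and Plcb1 at 20.2, which are widely expressed in cortical excitatory neurons.

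**Figure D1:**
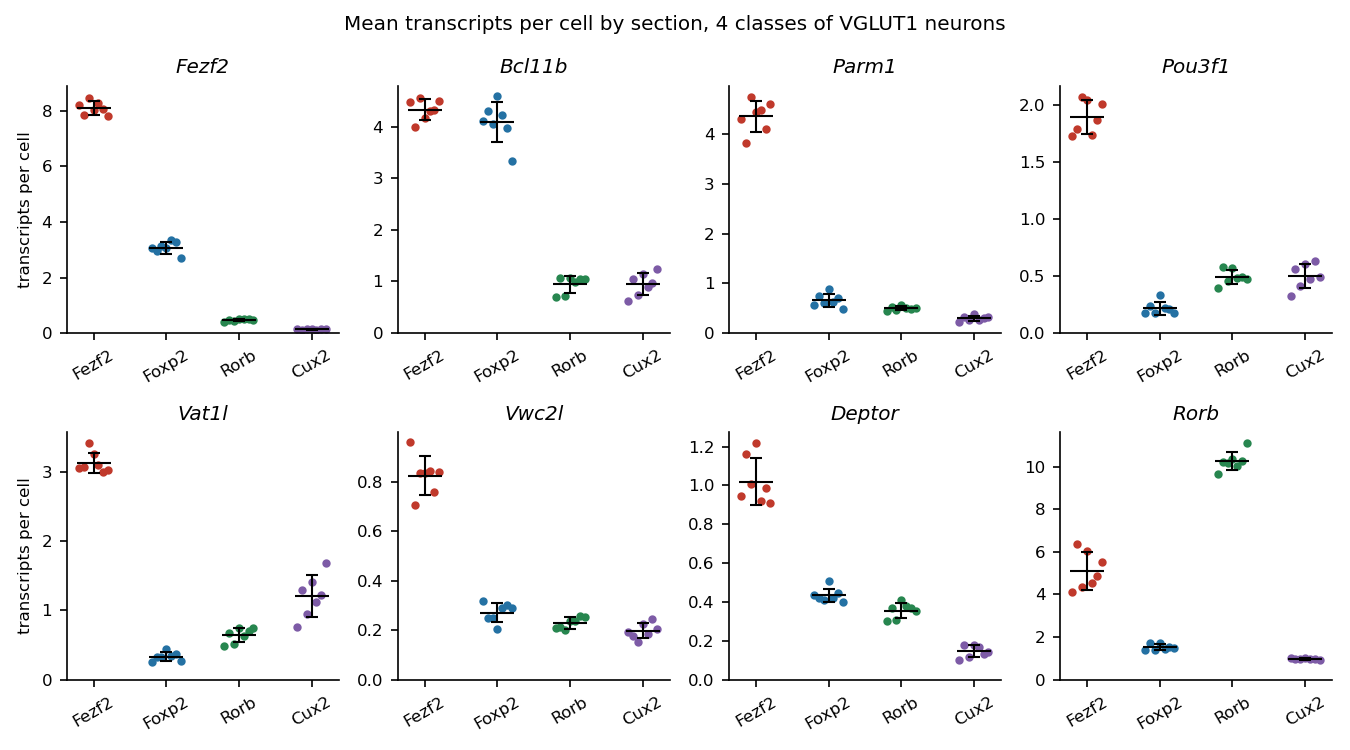
Mean transcripts per cell of 8 genes (vertical axis) in Fezf2, Foxp2, Rorb and Cux2 neurons (horizontal axis). Points are the 7 sections, horizontal lines the means and bars 1 SD. Bcl11b lies at similar levels in Fezf2 and Foxp2 neurons, while Parm1, Pou3f1, Vat1l, Vwc2l and Deptor are highest in Fezf2 neurons in every section.

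Other excitatory classes, cut from the same sections by the same limits on Slc17a7, Cplx3, Slc17a6 and GABA genes, served as comparisons. Foxp2 neurons (5963 cells) had at least 5 Foxp2 transcripts, Rorb neurons (17337 cells) at least 5 Rorb and at most 2 each of Fezf2 and Foxp2, and Cux2 neurons (6163 cells) at least 5 Cux2 and at most 2 each of Rorb, Fezf2 and Foxp2. Counts were summed per section and class and tested with edgeR's quasi-likelihood test with the section as a block, without the genes used for the cuts, at an adjusted p of 0.05. Log2 differences below are Fezf2 neurons minus the other class after TMM scaling, ± SE, over 7 sections each.

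Against Foxp2 neurons, the layer 6 corticothalamic class that shares Fezf2, the Fezf2 neurons were set apart by extratelencephalic markers on one side and corticothalamic markers on the other. Of 284 genes tested, 122 were higher in Fezf2 neurons (43%) and 105 lower (37%), 79.9% in all. With library size in place of TMM, which moves the median log2 difference of all genes to 0.46 from 0.08, 68.8% of 234 called genes were higher, against 53.7% with TMM. Differences are therefore relative to that scale.

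Vat1l had 3.06, 3.06, 3.41, 3.25, 3.09, 3 and 3.03 transcripts per Fezf2 neuron over anterior 1 and 2, intermediate 1 and 2 and posterior 1, 3 and 4, against 0.256, 0.320, 0.325, 0.439, 0.338, 0.373 and 0.264 per Foxp2 neuron. Every section of Fezf2 neurons lay far above every section of Foxp2 neurons. The log2 difference was 2.61 ± 0.08 (edgeR adjusted p = 8.08e-11). Pou3f1 (2.49 ± 0.10) and Parm1 (2.09 ± 0.09) were higher as well, so 3 of the 4 measured extratelencephalic markers were higher, with a list median of 2.29 beside 0.08 over all genes tested. The fourth, Bcl11b, had 4.33 ± 0.198 transcripts per Fezf2 neuron and 4.09 ± 0.389 per Foxp2 neuron, and on the scaled values it was lower in Fezf2 neurons by a log2 difference of -0.56 ± 0.06 (edgeR adjusted p = 2.45e-06). That direction did not hold in every setting: 15 alternatives kept it past the threshold, 2 kept it without passing and 1 turned it. The log2 difference was 0.09 when members were required to carry at least 8 Fezf2 transcripts. It was -0.05 (edgeR adjusted p = 0.57) over cells with at most 5 glial, vascular and fibroblast transcripts.

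All 4 tested corticothalamic markers were lower in Fezf2 neurons, with a median of -3.77. Rprm, the cell-cycle arrest gene Reprimo, averaged 1.92 ± 0.199 transcripts per Fezf2 neuron and 12.6 ± 0.782 per Foxp2 neuron (log2 difference -3.37 ± 0.06, edgeR adjusted p = 4.42e-12). Syt6, a synaptotagmin, averaged 0.379 ± 0.085 against 5.06 ± 0.145 (-4.40 ± 0.11), the Src-like adaptor Sla 0.0892 against 1.03 (-4.17 ± 0.10), and Tle4, a Groucho-family co-repressor, 2.38 against 7.57 (-2.32 ± 0.06). Of 20 identity transcription factors tested, 5 were higher and 10 lower. Bhlhe22, a bHLH factor, averaged 3.01 transcripts per Fezf2 neuron and 0.301 per Foxp2 neuron (2.66 ± 0.06), and Rorb 5.10 against 1.53 (1.08 ± 0.06), while Zfpm2, a GATA cofactor, was lower (-2.39 ± 0.08). Among 21 axon guidance and adhesion genes, 12 were higher and 7 lower. The guidance ligand Slit2 was higher (1.90 ± 0.11) and the guidance ligand Sema3a lower (-2.34 ± 0.10), as was the cadherin Cdh9 (-2.03 ± 0.08). Plcxd2, a phospholipase-like gene, averaged 10.3 against 1.28 transcripts per cell (2.37 ± 0.07), the cation channel gene Trpc4 was higher (1.86 ± 0.11), and the kainate receptor gene Grik3 (-1.63 ± 0.05) and Nxph3 (-2.07 ± 0.05) were lower. Of the 2 measured near-projecting markers, Vwc2l was thus higher and Nxph3 lower. Together they averaged 4.87 per 1000 in Fezf2 and 11.9 in Foxp2 neurons. Of 26 glial, vascular and fibroblast markers 11 were higher and 3 lower, with astrocyte markers at 20.1 to 28.6 per 1000 in Fezf2 and 10.3 to 12.7 in Foxp2 neurons. Over cells with at most 5 such transcripts 163 of 220 genes tested were called, 147 with the sign of a call over all cells and 5 with the opposite sign.

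**Figure D2:**
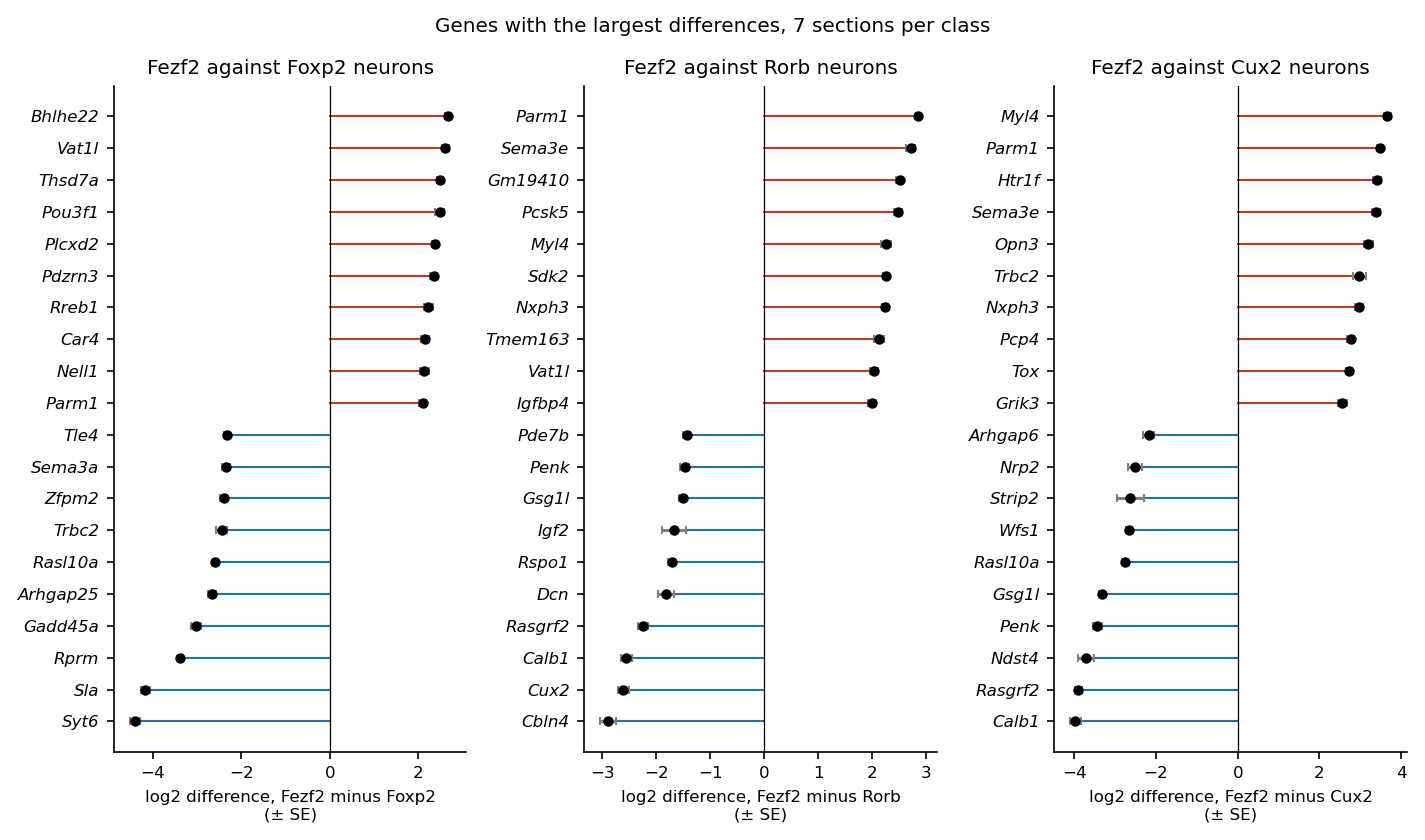
Log2 difference of the genes that differed most in each direction (up to 10 a side), Fezf2 neurons minus Foxp2, Rorb or Cux2 neurons, with SE bars that are often shorter than the points. Red lines mark genes higher in Fezf2 neurons and blue lines genes lower, and Parm1 appears on the higher side in all 3 panels.

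Against Rorb neurons, a class of layers 4 and 5, Bcl11b and the other extratelencephalic markers were higher in Fezf2 neurons and the upper layer markers lower. Of 287 genes tested, 107 were higher (37.3%) and 137 lower (47.7%), 85% in all. Bcl11b had 4.002 to 4.55 transcripts per Fezf2 neuron over the sections and 0.705 to 1.07 per Rorb neuron, with no overlap. The log2 difference was 1.94 ± 0.08 (edgeR adjusted p = 1.36e-09). Parm1 (2.86 ± 0.05), Vat1l (2.04 ± 0.07) and Pou3f1 (1.67 ± 0.06) made it 4 of 4 measured extratelencephalic markers higher, with a list median of 1.99 beside -0.12 over all genes tested. Both measured near-projecting markers were higher, Nxph3 by 2.24 ± 0.06 and Vwc2l by 1.58 ± 0.07. Of 4 upper layer markers, 3 were lower. Cux2 averaged 0.862 ± 0.226 transcripts per Fezf2 neuron and 4.29 ± 0.536 per Rorb neuron (-2.61 ± 0.10), the calcium buffer gene Calb1 0.658 against 3.16 (-2.55 ± 0.10), and Rasgrf2, a Ras exchange factor, 0.912 against 3.59 (-2.25 ± 0.09). Rspo1 was lower (-1.72 ± 0.07) and Deptor higher (1.25 ± 0.07), so the intratelencephalic markers did not move together. Further genes higher in Fezf2 neurons were the guidance ligand Sema3e (2.72 ± 0.08), the proprotein convertase Pcsk5 (2.48 ± 0.07), the serotonin receptor Htr1f (1.70 ± 0.05) and the insulin-like growth factor binding protein Igfbp4 (1.997 ± 0.07), and the cerebellin Cbln4 was lower (-2.89 ± 0.15).

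Glial transcripts moved with this comparison. Of 26 glial, vascular and fibroblast markers, 24 were lower in Fezf2 neurons and none higher. Astrocyte markers (5 genes) summed to 20.1 to 28.6 per 1000 transcripts in the sections of Fezf2 neurons and 33.9 to 44.4 in those of Rorb neurons. Rorb is itself expressed by astrocytes, and whether that bears on this difference was not tested. Over cells with at most 5 such transcripts, 493 of the 3672 members, 180 of 221 genes tested were called. Of these, 146 had the sign of a call over all cells and 12 the opposite sign (8 with the astrocyte gene Acsbg1 not counted toward the limit). Bcl11b and Parm1 were among those with the same sign.

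Against Cux2 neurons, an upper layer class, deep layer and extratelencephalic genes were higher in Fezf2 neurons and upper layer genes lower. Of 282 genes tested, 111 were higher (39.4%) and 128 lower (45.4%), 84.8% in all. Pcp4, encoding a calmodulin-binding peptide of deep layer neurons, had 7.99 to 10.4 transcripts per Fezf2 neuron over the sections and 0.763 to 1.26 per Cux2 neuron. The section ranges are far apart, with a log2 difference of 2.76 ± 0.09 (edgeR adjusted p = 1.49e-10). Parm1 had 3.82 to 4.75 against 0.229 to 0.375 transcripts per cell (3.49 ± 0.08), and Bcl11b (1.81 ± 0.10), Pou3f1 (1.54 ± 0.09) and Vat1l (1.01 ± 0.11) were also higher, 4 of 4 markers with a median of 1.67 beside -0.09 over all genes tested. Vat1l was thus less apart from Cux2 neurons, which held 1.20 ± 0.301 transcripts each, than from the other classes in these values, a difference that was not tested. Deptor was higher by 2.42 ± 0.10. The serotonin receptor Htr1f (3.42 ± 0.10), the myosin light chain Myl4 (3.66 ± 0.08), Sema3e (3.39 ± 0.10) and the HMG-box factor Tox (2.72 ± 0.08) followed. All 3 tested upper layer markers were lower, with Calb1 at 0.463 to 0.924 transcripts per Fezf2 neuron and 6.72 to 8.49 per Cux2 neuron (-3.97 ± 0.12) and Rasgrf2 at 0.912 against 10.2 (-3.90 ± 0.09). The AMPA receptor auxiliary gene Gsg1l (-3.33 ± 0.07), the opioid precursor gene Penk (-3.43 ± 0.11) and the semaphorin receptor gene Nrp2 (-2.51 ± 0.17) were lower. Of 26 glial, vascular and fibroblast markers 7 were higher and 16 lower, while the summed level of the astrocyte markers was 20.1 to 28.6 per 1000 in Fezf2 and 9.56 to 11.8 in Cux2 neurons, and that of 3 oligodendrocyte markers averaged 5.14 against 2.87. Over cells with at most 5 transcripts of the 26 genes, 169 of 222 genes tested were called, 162 with the sign of a call over all cells and 1 with the opposite sign.

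The members themselves fell into overlapping sets. At least 3 Vat1l transcripts were present in 1491 members (40.6%), at least 3 Deptor in 494 (13.5%) and at least 3 Vwc2l in 358 (9.75%), while 1675 (45.6%) had 3 of none of them. In Foxp2 neurons, at a median of 532 transcripts a cell against 615 in Fezf2 neurons, those shares were 1.996% for Vat1l, 2.03% for Deptor and 0.889% for Vwc2l. Vat1l and Vwc2l were shared by 167 members, which is 11.2% of the Vat1l set and 46.6% of the Vwc2l set. Vat1l and Deptor were also shared by 167, which is 11.2% of the Vat1l set and 33.8% of the Deptor set, whereas Vwc2l and Deptor were shared by 20. At least 5 Bcl11b transcripts were present in 1389 members (37.8%), and 904 of these were in the Vat1l set. At least 3 transcripts of Rprm, a corticothalamic marker, were present in 892 members (24.3%). Of these, 425 had 3 of none of Vat1l, Deptor and Vwc2l. By section the Vat1l share ran from 38.1% to 46.1%, the Deptor share from 10.4% to 17.2% and the Vwc2l share from 8.02% to 13.5%. Posterior minus anterior shares did not pass an exact permutation test (two-sided p = 0.4 for Vat1l, 0.4 for Deptor and 0.8 for Vwc2l), which cannot go below 0.2 with these sections. The 3512 members with at least 300 transcripts were also thinned to 300 each. Of these, 58.8% then had at least 1 Vat1l transcript, 32.2% a Deptor and 23.4% a Vwc2l transcript. Without thinning, over all 3672 members, the shares with at least 1 were 72.4%, 48.2% and 36.3%.

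**Figure D3:**
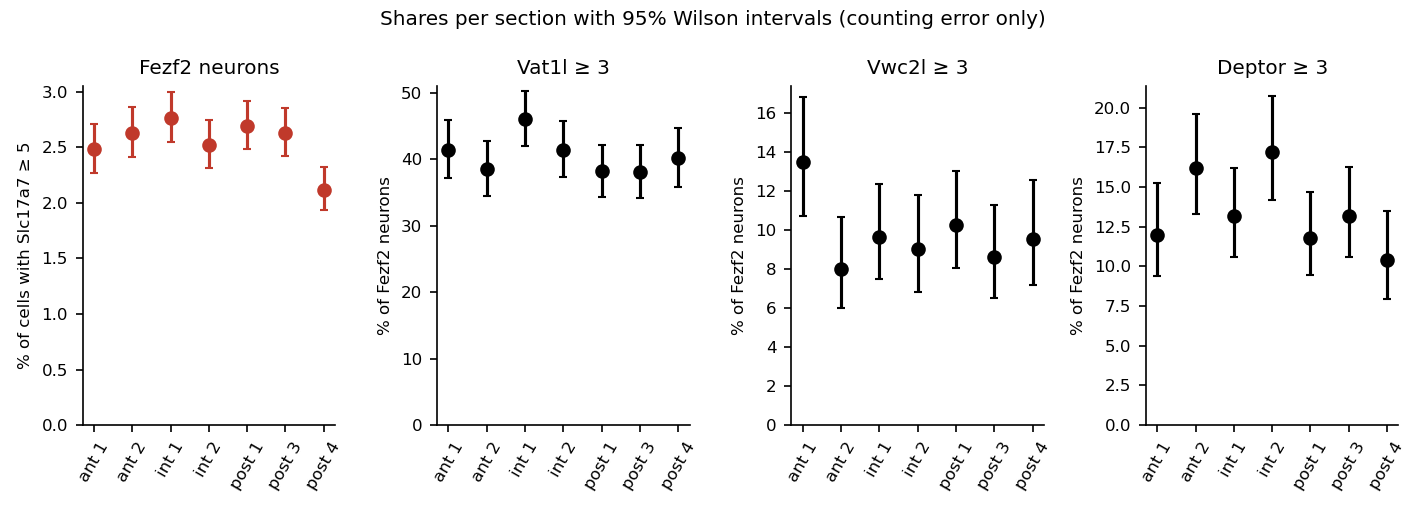
Fezf2 neurons as a percentage of cells with at least 5 Slc17a7 transcripts, and the percentages of Fezf2 neurons with at least 3 Vat1l, Vwc2l or Deptor transcripts, by section from anterior to posterior, with 95% Wilson intervals. Posterior 4 has the smallest share of Fezf2 neurons, 2.12%, and intermediate 1 the largest Vat1l share, 46.1%.

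Members with at least 3 Vat1l transcripts were set against the 1012 members with none. Extratelencephalic genes went with Vat1l, and corticothalamic ones with its absence. Of 262 genes tested, 86 were higher in Vat1l-positive members (32.8%) and 88 lower (33.6%), 66.4% in all. Library size in place of TMM, which moves the median log2 difference of all genes to -0.35 from -0.11, made 31.9% of 191 called genes higher against 49.4%. Vat1l-positive members were deeper, with a median of 720 transcripts against 509.5, so levels below are per 1000 transcripts. Parm1 had 8.79 to 10.6 per 1000 in Vat1l-positive members over the 7 sections and 2.27 to 3.70 in Vat1l-negative ones. The ranges do not touch, and the log2 difference was 2.07 ± 0.10 (edgeR adjusted p = 6.45e-09). Pou3f1 (1.89 ± 0.10) and Bcl11b (1.14 ± 0.07) were higher too, 3 of 3 tested extratelencephalic markers (median 1.89). Of 21 genes for axon guidance and adhesion, 12 were higher and 4 lower, among them the cadherin Cdh13 (1.75 ± 0.09) and the contactin Cntn6 (1.20 ± 0.12) on the higher side and the semaphorin Sema5b on the lower (-1.51 ± 0.19). The channel gene Trpc4 (1.87 ± 0.12), the zinc transporter gene Tmem163 (1.84 ± 0.12), Igfbp4 (1.54 ± 0.07), the opioid precursor gene Pdyn (1.53 ± 0.22), Pvalb (1.15 ± 0.10) and the synaptotagmin Syt2 (1.07 ± 0.11) were higher. Tle4 (-1.29 ± 0.09), Rprm (-1.30 ± 0.14) and Syt6 (-2.36 ± 0.14) were lower, and all 4 tested corticothalamic markers were. Rorb (-0.64 ± 0.07) and Nxph3 (-0.90 ± 0.14) were lower, while Vwc2l gave 0.04 ± 0.13 and Deptor -0.27 ± 0.12, neither past the test (edgeR adjusted p = 0.787 and 0.0653). Vwc2l had no settled direction here, since it was higher with 3 Fezf2 transcripts required (0.47, edgeR adjusted p = 0.0053) and lower over cells with at most 5 glial, vascular and fibroblast transcripts (-1.24, edgeR adjusted p = 0.022). Of 26 glial, vascular and fibroblast markers 2 were higher and 11 lower, the lower ones including the astrocyte filament gene Gfap (-1.44 ± 0.15). Astrocyte markers summed to 14.2 to 19.6 per 1000 in Vat1l-positive and 25.9 to 44.2 in Vat1l-negative members. Over cells with at most 5 such transcripts 81 of 156 genes tested were called, 67 with the sign of a call over all members and 1 with the opposite sign.

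Members with at least 3 Vwc2l transcripts carried a different set. Of 261 genes tested against the 2339 members without Vwc2l, 59 were higher (22.6%) and 52 lower (19.9%), 42.5% in all, at like depth (medians of 619.5 and 609 transcripts). With library size 38.2% of 131 called genes were higher, against 53.2%. Nxph3, the other measured near-projecting marker, had 7.58 to 11.6 per 1000 in Vwc2l-positive members and 2.04 to 2.58 in Vwc2l-negative ones (log2 difference 2.17 ± 0.09, edgeR adjusted p = 1.40e-10). Every section showed this separation, though Nxph3 was also higher in Foxp2 neurons than in Fezf2 neurons. Pvalb, the calcium buffer also known from fast-spiking interneurons, had 9.64 to 21.5 against 3.38 to 5.76 per 1000 (1.81 ± 0.15). The 6 GABAergic markers summed to 25.9 to 41.5 against 15.97 to 20.4 per 1000. That sum includes Pvalb and the rule's Gad1 and Gad2, so it is not separate support. In the Vat1l split the sum was 23.2 to 26.4 in positive and 9.69 to 15.6 per 1000 in negative members. How far these levels reflect neighbouring cells was not tested. Stard5, a lipid-transfer gene (1.90 ± 0.19), Zcchc12 (1.90 ± 0.20), the mu-opioid receptor gene Oprm1 (1.63 ± 0.16), the adhesion gene Mdga1 (1.56 ± 0.22) and Myl4 (1.37 ± 0.11) were higher. Of 15 channel and receptor genes 7 were higher and 1 lower, the higher ones including the GABA-B receptor auxiliary gene Kctd8 (1.27 ± 0.15), the kainate receptor auxiliary gene Neto2 (1.05 ± 0.11) and the muscarinic receptor gene Chrm2 (1.02 ± 0.18), and the lower one the GDNF-family receptor gene Gfra2 (-0.70 ± 0.08). All 4 extratelencephalic markers were modestly higher, by 0.42 ± 0.07 (Bcl11b) to 0.60 ± 0.09 (Vat1l), with a list median of 0.49 beside -0.04 over all genes tested. With at least 8 Fezf2 transcripts required, Vat1l and Parm1 no longer passed and Bcl11b stood at -0.0271, and over cells with at most 5 glial, vascular and fibroblast transcripts none of the 4 passed (edgeR adjusted p = 0.45 to 0.51). The glial limit left 45 Vwc2l-positive members, 3 to 10 a section, so that result cannot tell a smaller difference from a less precise one. Of 4 tested corticothalamic markers 2 were higher, 0 were lower and 2 did not pass, with a median of 0.47. Deptor was lower (-0.63 ± 0.14). Cdh13 (-1.44 ± 0.11), the opsin gene Opn3 (-1.48 ± 0.16), the receptor activity modifier Ramp3 (-1.34 ± 0.20) and Igfbp4 (-0.78 ± 0.08) were lower.

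Members with at least 3 Deptor transcripts ran the other way on the extratelencephalic genes. Of 258 genes tested against the 1901 members without Deptor, 48 were higher (18.6%) and 52 lower (20.2%), 38.8% in all. With library size 33.1% of 124 called genes were higher, against 48.0%, and the median log2 difference of all genes was -0.19 against 0.02. Deptor-positive members were deeper, with a median of 720 transcripts against 570. All 4 measured extratelencephalic markers were lower in Deptor-positive members, with a median of -0.77. Parm1 had 2.69 to 3.39 per 1000 in Deptor-positive members and 7.26 to 9.47 in Deptor-negative ones (-1.19 ± 0.10, edgeR adjusted p = 4.36e-07), and Bcl11b 2.74 to 4.72 against 6.99 to 9.28 (-0.99 ± 0.09), both without overlap. Vat1l (-0.55 ± 0.10) and Pou3f1 (-0.45 ± 0.10) were lower by less, and with the Fezf2 limit lowered to 3 the log2 difference of Vat1l was -0.07 (edgeR adjusted p = 0.61). Nxph3 (-1.06 ± 0.10) and Vwc2l (-0.79 ± 0.17) were lower too. Most other intratelencephalic markers did not go with Deptor: of 4 tested, 1 was higher, 0 were lower and 3 did not pass. Their median log2 difference was 0.15, beside 0.02 over all genes tested. On the higher side stood the synaptic release gene Rims3, with 10.2 to 15.4 per 1000 in Deptor-positive and 5.36 to 6.85 in Deptor-negative members (1.43 ± 0.09), the GTPase-activating protein gene Arhgap25 (2.18 ± 0.14), Nrep (1.68 ± 0.10), the sorting receptor gene Sorcs3 (1.63 ± 0.12), the carbonic anhydrase-related gene Car10 (1.36 ± 0.09), Gfra2 (1.27 ± 0.08) and the calcium-binding gene Necab1 (1.23 ± 0.09). Of 5 activity-regulated genes 4 were higher and 1 lower, with Fos (0.93 ± 0.15), Arc (0.77 ± 0.08), Nrn1 (0.73 ± 0.08) and Bdnf (0.61 ± 0.10) on the higher side. Among 21 axon guidance and adhesion genes 2 were higher and 10 lower, the lower ones including Cdh13 (-1.71 ± 0.11) and Cntn6 (-1.42 ± 0.10). The 26 glial, vascular and fibroblast markers had a median log2 difference of -0.03, beside 0.02 over all genes tested.

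For Bcl11b itself, the 1389 members with at least 5 transcripts were set against the 1004 with at most 1, and those between were left out. Of 262 genes tested 82 were higher in Bcl11b-high members (31.3%) and 93 lower (35.5%), 66.8% in all. Igfbp4 had 14.2 to 18.6 per 1000 in Bcl11b-high members and 2.77 to 5.17 in Bcl11b-low ones (log2 difference 2.36 ± 0.08, edgeR adjusted p = 1.93e-12). Vat1l (1.83 ± 0.10), Parm1 (1.59 ± 0.11) and Pou3f1 (1.36 ± 0.11) were higher, 3 of 3 tested extratelencephalic markers with a median of 1.59, beside -0.01 over all genes tested. Both near-projecting markers were higher, Vwc2l by 1.03 ± 0.13 and Nxph3 by 0.84 ± 0.13. The intratelencephalic markers Deptor, Rspo1, Rorb and Cux2 were lower, with log2 differences of -1.29 ± 0.12 for Deptor, -1.15 ± 0.14 for Rspo1, -0.73 ± 0.08 for Rorb and -0.69 ± 0.14 for Cux2. Cdh13 (2.27 ± 0.12), Tmem163 (2.04 ± 0.13), Cntn6 (1.89 ± 0.13), Htr1f (1.60 ± 0.10) and the SOX factor Sox5 (1.17 ± 0.08) were higher. Thsd7a (-2.23 ± 0.15), the potassium channel gene Kcnh5 (-1.72 ± 0.11), the carbonic anhydrase gene Car4 (-1.56 ± 0.11), Nrep (-1.55 ± 0.10) and Rims3 (-1.48 ± 0.08) were lower. Of 26 glial, vascular and fibroblast markers none was higher and 16 were lower, with astrocyte markers at 14.5 to 21.0 per 1000 in Bcl11b-high and 24.97 to 31.6 in Bcl11b-low members. Over cells with at most 5 such transcripts Rorb, Cux2, Nxph3 and Vwc2l no longer passed, while Deptor kept its direction at -1.88.

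**Figure D4:**
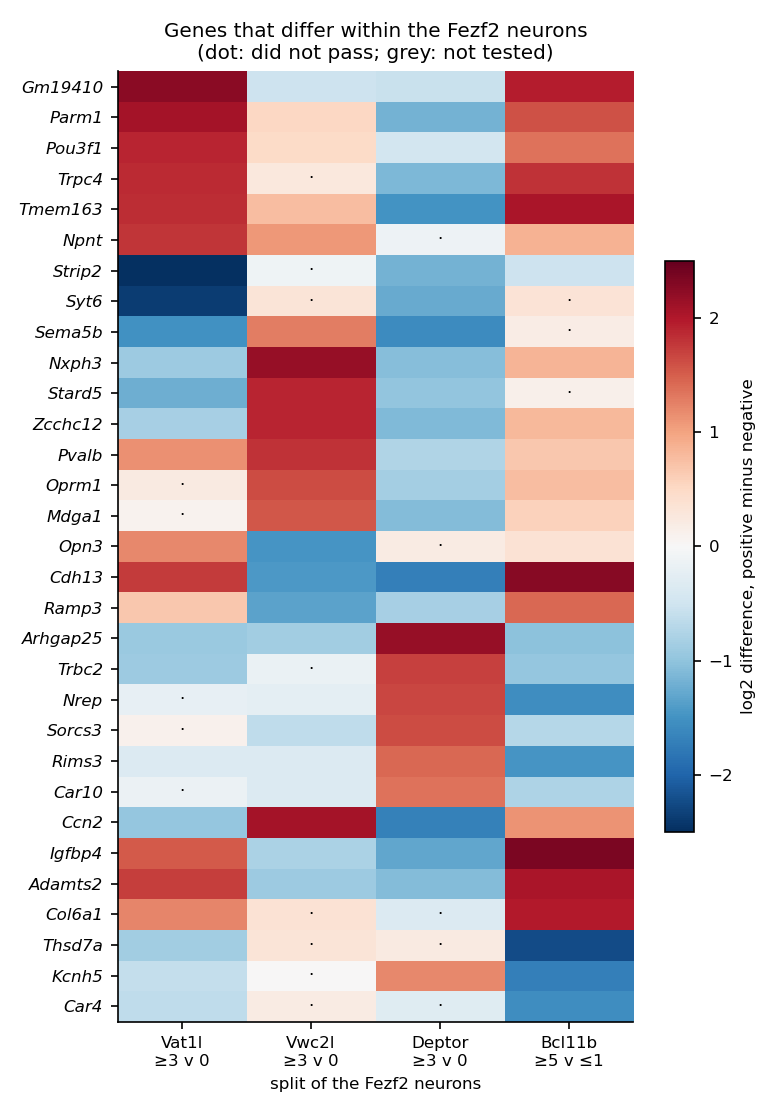
Log2 difference (colour, positive or high minus negative or low members) of genes that differed most in the 4 splits of Fezf2 neurons. Dots mark differences that did not pass the edgeR test. Parm1, Trpc4 and Tmem163 are red for Vat1l and Bcl11b and blue for Deptor.

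Between posterior and anterior sections no gene of 285 passed the edgeR test in Fezf2 neurons (0%), where 42 had an unadjusted p under 0.05 and DESeq2 called 8. Posterior replicates 3 and 4 were on a second slide that holds no other position, and slide 1 alone gave 3 calls and the slide as a block 0. The largest support was for Cpne6, a copine, a calcium-dependent membrane-binding protein, at 5.65 ± 0.205 per 1000 in posterior (n = 3) and 3.80 ± 0.138 in anterior sections (SD, n = 2), with no overlap (log2 difference 0.53 ± 0.09, edgeR adjusted p = 0.110). Slit2 stood at 4.17 ± 0.148 against 3.14 ± 0.105 (0.37 ± 0.09) and Tox at 5.33 ± 0.175 against 6.64 ± 0.001 (-0.35 ± 0.08). Bcl11b (-0.11 ± 0.11), Vat1l (-0.16 ± 0.10) and Deptor (-0.31 ± 0.13) did not pass (edgeR adjusted p = 0.684, 0.430 and 0.313). Leaving out posterior 4 gave 9 calls, and in no gene of 287 did the posterior minus anterior difference of Fezf2 and Foxp2 neurons itself differ by edgeR (29 at an unadjusted p under 0.05, 0 by DESeq2).

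Several genes with the widest posterior differences were set by few cells of 2 sections. Shisa6, an AMPA receptor auxiliary subunit, reached 3 transcripts in 1 and 2 members of anterior 1 and 2, in 2 and 1 of intermediate 1 and 2, and in 45, 39 and 3 of posterior 1, 3 and 4. Npy2r, the neuropeptide Y receptor Y2, reached 3 in 0 and 0 members of the anterior sections, in 1 and 0 of the intermediate ones and in 27, 21 and 0 of the posterior ones. Posterior 4 was thus like the anterior and intermediate sections and unlike the other posterior ones.

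The 84 members of posterior 1 and 3 with at least 3 Shisa6 transcripts had a profile of their own, which is a description of cells chosen after these values were seen. Beside the 1046 members of the same sections with fewer than 3, they averaged 40.4 against 3.22 transcripts of Cabp7, a calcium-binding protein gene, 27.4 against 2.67 of the copine Cpne4, 25.5 against 6.24 of the bHLH factor Neurod6 and 15.5 against 2.84 of Cpne6. Strip2 averaged 6.51 against 0.170 and Npy2r 3.32 against 0.0210. They were low in cortical output genes, with 0.440 against 3.26 transcripts of Vat1l, 1.07 against 4.57 of Parm1 and 2.52 against 4.46 of Bcl11b, and they averaged 6.11 against 8.35 Fezf2 transcripts. Their median depth was 778 against 594 transcripts. Of the 84, 57 had at least 3 Strip2 and 45 at least 3 Npy2r transcripts, against 6 and 3 of the 1046 others. These values go against a neocortical layer 5 label for those cells. Without cells with 3 or more Shisa6 transcripts, in both classes, the class comparisons and splits called 110 to 254 genes, none with the opposite sign of a gene called over all cells. In Vat1l-negative members Strip2 had 3.36 and 2.66 per 1000 in posterior 1 and 3 and 0.375 to 0.773 in the other sections. Its difference in the Vat1l split moved most among named genes, with a log2 difference of -1.70 without them and -2.49 ± 0.40 with them. Cpne6, the gene with the largest support by position, averaged 2.84 transcripts in the 1046 others of posterior 1 and 3. Over all members it averaged 2.27 and 2.42 in the anterior sections, 2.73 and 2.71 in the intermediate ones and 3.73 in posterior 4. Position was not fitted without the 84 cells.

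**Figure D5:**
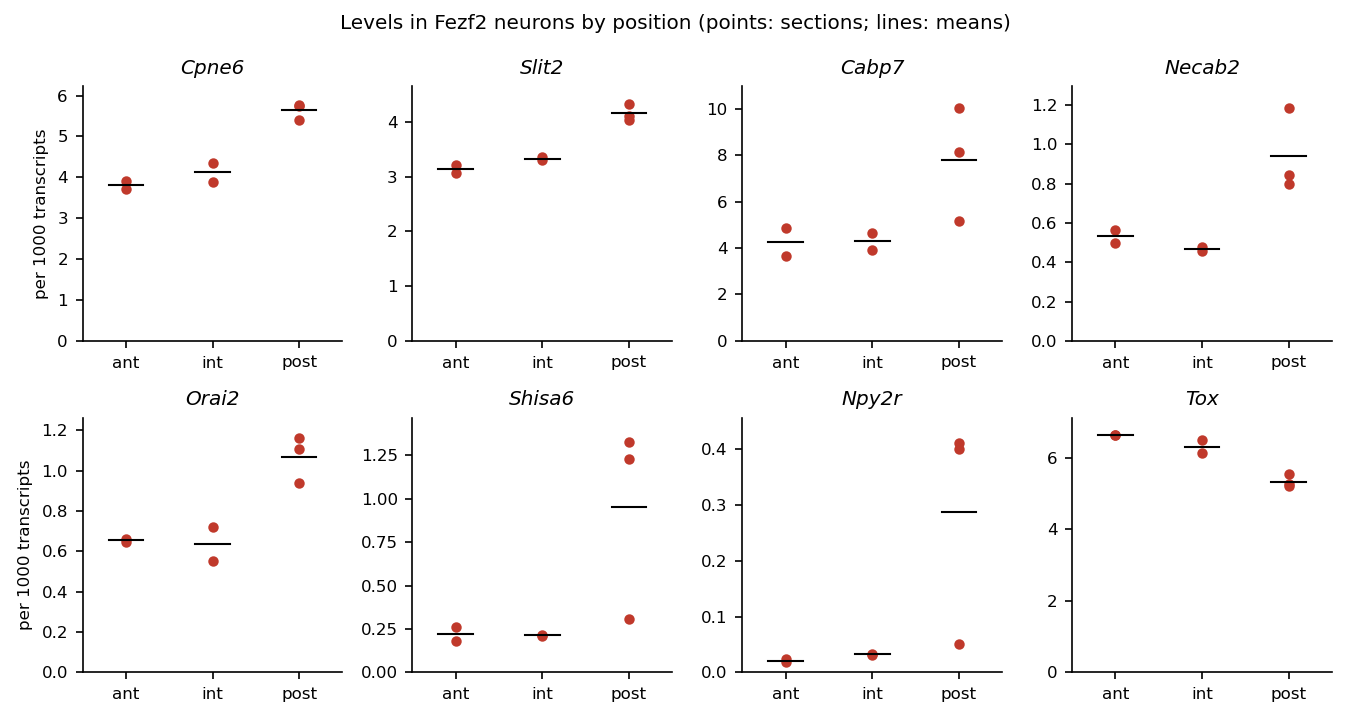
Transcripts per 1000 of 8 genes in Fezf2 neurons (vertical axis) by position, anterior, intermediate and posterior. Points are sections and lines means. Npy2r and Shisa6 have posterior sections high and posterior 4 near the others, while all posterior sections of Cpne6 and Slit2 lie above all others. In posterior 1 and 3 the Cpne6 level includes members with at least 3 Shisa6 transcripts, which averaged 15.5 against 2.84 in the others. None passed the edgeR test.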

How the data were processed

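Xenium transcripts per gene and segmented cell were taken as deposited: per the file headers and values, whole-number counts, not normalised. The submitters' processing notes name Seurat without a version. Segmentation and cell filters were not given in the sources used here. Cells were joined to sections by identifier, and 4 numeric columns of the cell table were not used. Of 297 symbols, 296 matched the mouse RefSeq gene table.

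Counts of the cells of each class were summed per section and tested with edgeR 4.0.16 (filterByExpr, TMM, quasi-likelihood, Benjamini-Hochberg over all genes tested) in R 4.3.3, without the genes used to cut the classes. Class comparisons had the section as a block, and positions had none. DESeq2 1.42.0, library size, cell filters and each section left out were alternatives. The fit was tested on simulated data. At a true 1.5-fold change the position test recovered 10 of 19 genes and the interaction of position and class 4 of 20. At 2-fold they recovered 19 of 20 and 17 of 20, so moderate position differences can be missed. Wide differences did not always pass either. Shisa6 had 1.33, 1.23 and 0.305 per 1000 in posterior 1, 3 and 4. In anterior 1 and 2 it had 0.264 and 0.181, and the gene did not pass the edgeR position test. How often differences that vary between the sections of a position are recovered was not tested. Genes named were the 10 with the widest log2 difference a side among those past the threshold, of 1 sign in every section and with at least 0.2 transcripts per cell, plus up to 4 of each gene list. The members and lists were chosen with earlier results of these data known. Doublets were not called, and the rule's limits on genes of other neuron classes stood in for that in part. The rule set no limit on glial, vascular or fibroblast genes. Control probes gave 0.249 counts per member over at least 3 probes, so 0.0830 per cell is an upper bound on the mean count of a control probe. Levels at or under it may lie within the background, and folds against them are not exact. Intervals cover counting error only. Results for a few genes are not reported here.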

Additional observations from a re-analysis of the deposited data

How the results depend on the processing

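Leaving out 1 section at a time gave 220 to 226 called genes against Foxp2 neurons, 240 to 246 against Rorb, 225 to 233 against Cux2 neurons, 162 to 168 for the Vat1l split, 101 to 114 for Vwc2l, 93 to 109 for Deptor, 149 to 169 for Bcl11b, 0 to 9 for position (9 without posterior replicate 4) and 0 to 4 for the interaction of position and class (4 without posterior replicate 4). For position, DESeq2 called 8 genes, a replicate block 8 on 1 residual degree of freedom and slide 1 alone 3. Only a replicate number links sections across positions, and the sections numbered 1 and 2 all lie on slide 1. Deviations from the position mean correlated at 0.521 between anterior 1 and intermediate 1 over 259 genes. With 2 sections a position, those numbered 2 mirror those numbered 1, so this value cannot settle pairing. Deviations of posterior 1 correlated with those of anterior 1 and intermediate 1 at -0.0821 and 0.0520. The replicate block moved no other count by over 1.5 times. Cells with at most 5 glial, vascular and fibroblast transcripts left fewer cells and genes and gave 81 calls for Vat1l, 47 for Vwc2l, 54 for Deptor and 87 for Bcl11b. With Acsbg1 not counted toward that limit, an alternative chosen after seeing the data like the Shisa6 limit, Vat1l gave 95 and Bcl11b 108. Fezf2 neurons were 5.70% of Slc17a7 cells with at least 3 Fezf2 transcripts required and 0.984% with 8.

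Over 215 pairs of a gene and a comparison chosen for description, many of them for having 1 sign in every section, 3877 of 3962 values under alternatives kept direction and side of the threshold. Over all genes, calls with the opposite sign of a call over all members numbered 12 for Rorb neurons with few glial transcripts and 8 with Acsbg1 not counted, 5 for Foxp2 neurons with library size, 5 with 8 Fezf2 required, 5 with few glial transcripts and 4 with Acsbg1 not counted, and 5 for Cux2 neurons with 8 Fezf2 required, and at most 2 in every other comparison and alternative run. Among the described genes, signs turned for Bcl11b against Foxp2 neurons (0.0876) and in the Vwc2l split (-0.0271) with 8 Fezf2 required, for Deptor in the Vat1l split (0.0258) and Pou3f1 in the Deptor split (0.0549) with 3 required, and for Parm1 in the Vwc2l split with few glial transcripts (-0.22). Vwc2l in the Vat1l split, near 0, gave -0.20 with library size, -0.88 with 8 Fezf2 required, -1.24 with few glial transcripts, -0.73 with Acsbg1 not counted, -0.0376 with Shisa6 below 3 and -0.0397 to 0.126 with 1 section left out. Vat1l by position gave 0.53 with few glial transcripts and 0.0921 with Acsbg1 not counted. The causes were not tested. Xenium depth limits genes near the control-probe level, and the 5 sections of the position test cannot reach an exact p below 0.2.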
